A study of Mus musculus with 15 samples.

Results

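H3K4me3, the histone H3 tail with 3 methyl groups on lysine 4, was compared between the livers of mice fed a high-fat diet (HF) and mice fed a diet based on purple corn (RD). The comparison took 6 of the 15 libraries of the study, 3 HF and 3 RD, with 1 library per mouse and 1 list of enriched regions per library. All mice were wild-type C57BL/6J females (C57BL/6 in the labels) that started their diet at 3 months of age and were fed for 10 months. The labels state 12 months as the age of each mouse. The HF mice ate a fat-rich purified diet ad libitum. The RD mice ate ad libitum a standard chow in which the maize was replaced by powder from seeds of an anthocyanin-rich purple corn hybrid. HF and RD thus differ in fat, carbohydrate, energy content and base formula as well as in corn, and these differences cannot be told apart here. Livers were fixed in formalin and embedded in paraffin, and chromatin was taken from 4 sections of each (PAT-ChIP), so each list comes from whole liver with all its cell types. The remaining 9 libraries came from mice on a standard diet (SD), caloric restriction (CR) or a yellow corn diet (YD). They were not used to sort genes by their islands in HF and RD. The gene lists, however, were chosen with earlier results of these data known, and 1 fit below took all 15 libraries.

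H3K4me3 sits on nucleosomes around the transcription start sites (TSSs) of genes that are active or poised for activity, where it is laid down by SET1 and MLL complexes and recruited above all to CpG-rich DNA. In liver the mark covers the promoters of housekeeping genes and of the genes that make the organ a liver, such as those for plasma proteins, gluconeogenesis and lipid handling. Wide domains of the mark are known at genes for cell identity and at genes with strong, regulated expression.

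The enriched regions are islands, runs of enriched 200 bp windows joined by SICER2 across gaps of up to 400 bp. A gene was counted as marked in a library when an island lay within 1 kb of any of its TSSs. Of 21755 protein-coding genes, 11875, 10345 and 11214 were marked in HF 1, HF 2 and HF 3. In RD 1, RD 2 and RD 3 the numbers were 6779, 7555 and 6050. The share of coding genes marked was thus 51.2% ± 3.53 (SD, n = 3) in HF and 31.2% ± 3.46 (SD, n = 3) in RD. Every HF library lay above every RD library, by 4350 genes on average, and the two-sided exact permutation test gave p = 0.1, the smallest value that 3 mice against 3 can give. Islands within 1 kb of a TSS made up 57.9%, 49.2% and 81.8% of the HF lists and 45.2%, 25.04% and 45.6% of the RD lists. The mean shares, 62.9% ± 16.9 in HF and 38.6% ± 11.8 in RD (SD, n = 3 each), differed by 24.3 points with no overlap (exact permutation p = 0.1).

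**Figure D1:**
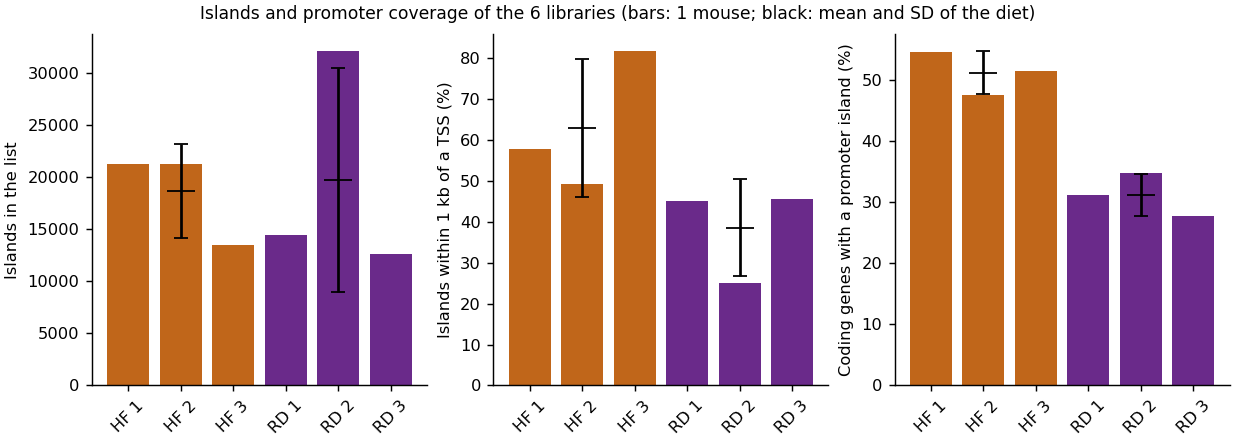
Number of islands, share of islands within 1 kb of a TSS in percent, and share of coding genes with a promoter island in percent, for 3 HF libraries (orange) and 3 RD libraries (purple); each bar is 1 mouse, and black marks give the mean and SD of the diet. The numbers of islands overlap between the diets, while the share of coding genes lies between 47.6% and 54.6% in HF and between 27.8% and 34.7% in RD.

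The lists themselves were not longer in HF. They held 21280, 21310 and 13499 islands in HF and 14454, 32131 and 12658 in RD (exact permutation p = 0.9). The number of reads behind the lists, recovered from the scores, was 9749186, 10176232 and 11548776 in HF and 9318315, 13978169 and 9237277 in RD (exact permutation p = 1). RD 2 stood apart, with the most reads, the most islands and the lowest share of islands at promoters. The library names take the form PATChIP for HF 2, HF 3 and RD 1 and ChIP for HF 1, RD 2 and RD 3, and what the forms stand for is not given in the sources used here. The difference in the share of coding genes marked was 18.4 percentage points between the PATChIP libraries (2 HF against 1 RD) and 23.3 points between the ChIP libraries (1 HF against 2 RD), with exact permutation p = 0.333 in each, the smallest these sizes allow. When the 12658 highest-scoring islands were taken from each of the 6 lists, the difference was 20.7 points. The Jaccard index of marked coding genes, the share of genes marked in both of a pair among those marked in either, was 0.844 to 0.893 within HF, 0.613 to 0.648 within RD and 0.503 to 0.668 between the diets.

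Genes were then sorted by the number of libraries in which they were marked. All 6 libraries marked 4415 coding genes, 20.3% of all, and no library marked 9126, or 41.9%. An island in at least 2 of 3 HF libraries and in no RD library was found at 2482 genes, 11.4% of coding genes, called HF+RD- here. The reverse, RD+HF-, held 27 genes, or 0.124%. With all 3 libraries of a diet required, the counts were 1504 (6.91%) and 1 (0.00460%). The count of HF+RD- genes was 1538 when HF 1 was left out, which then requires both remaining HF libraries. An island in at least 1 RD library and in no HF library was found at 307 genes (1.41%). A further 1759 genes (8.09%) were marked in 3 HF libraries and 1 RD library, and 998 (4.59%) in 1 HF library and no RD library. A gene with no island in a list has no region there that passed the authors' false discovery rate, which does not mean that it carried no H3K4me3. No exact test of presence at a single gene can pass a threshold of 0.05 with 3 libraries against 3, so these genes are described by their counts.

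**Figure D2:**
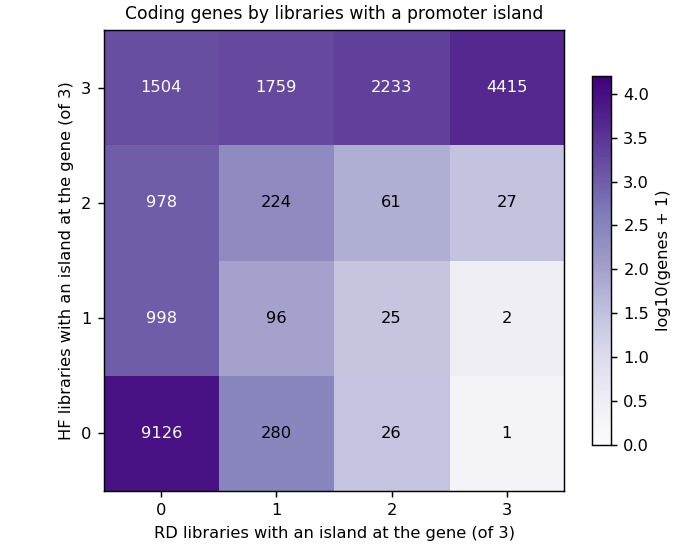
Number of coding genes in each cell by how many of 3 HF libraries (vertical axis) and how many of 3 RD libraries (horizontal axis) had an island within 1 kb of a TSS, shaded by log10(genes + 1). The genes lie mostly on and above the diagonal: 1504 genes were marked in 3 HF and 0 RD libraries and 1 gene in 0 HF and 3 RD libraries.

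The HF+RD- genes were spread over all 20 chromosomes studied, from 8.76% of coding genes on chromosome 3 to 15.2% on chromosome 12. Their promoter islands were of middle size and score in the HF lists. Median widths were 1800, 1400 and 1800 bp in HF 1, HF 2 and HF 3, against 3400, 2400 and 2800 bp at the 4415 genes marked in all 6 libraries. Their median score ranks, as percentiles within the whole list of the library, were 54.2, 48.4 and 33.7, against 89.8, 88.2 and 83.0. Among genes whose HF island ranked in the top 20% of its list, 1.79%, 0.896% and 1.71% had no island in any RD library. In the bottom 20% the shares were 90.9%, 66.2% and 77.1%. Genes marked in HF but in no RD library were thus mostly genes with weaker HF islands. These ranks come from the lists that chose the genes and are given as a description.

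**Figure D3:**
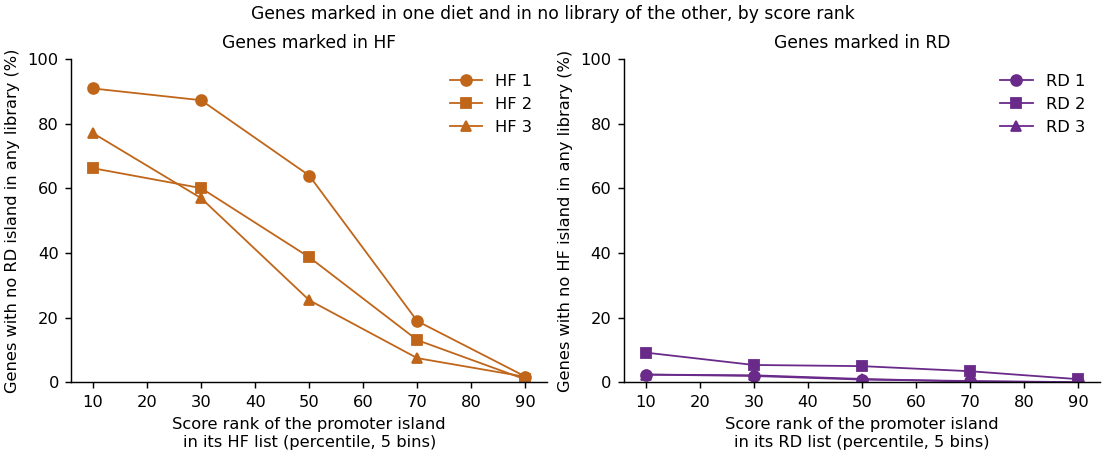
Share of marked genes that had no island in any library of the other diet, in percent, against the score rank of the gene's promoter island within its own list in 5 bins of 20 percentiles, for genes marked in each HF library (left) and each RD library (right). In HF the share runs from 66.2% to 90.9% in the lowest bin and from 0.896% to 1.79% in the highest; in RD it stays between 0 and 9.20%.

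At 112 of the 2482 HF+RD- genes an RD island lay beyond 1 kb but within 3 kb of a TSS, and at 445 within 10 kb. The HF island of 24 genes overlapped an RD island in every HF library that had one. Where an island that overlaps no RD island was required in at least 2 HF libraries, a condition chosen after the values were seen, 2441 genes were left.

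The base composition at the start of these genes, which the choice of genes did not use, was compared between the classes. In a window of 300 bases, from 250 bases before the annotated 5' end of the gene, the median ratio of observed to expected CpG was 0.67 for the HF+RD- genes, 0.80 for the genes marked in all 6 libraries, 0.23 for the genes marked in none and 0.53 over all coding genes. The ratio was above 0.6 in 58.3% of HF+RD- windows, in 75.8% of those marked in all 6 libraries, in 16.3% of those marked in none and in 44.7% of all. The letters GGGCGG, the core of the GC box, were found on either strand in 59.7% of HF+RD- windows, 60% of the windows of genes marked throughout and 43.4% of all windows. TATAAA was found in 7.29%, 7.41% and 12.7%, CCAAT in 36.6%, 39.7% and 38.9%, and the E-box CACGTG in 9.03%, 10.3% and 7.81%. The CpG measures of HF+RD- promoters lay between those of promoters marked in all 6 libraries and those of all coding genes. Genes marked in 3 HF libraries and 1 RD library had a median ratio of 0.74, with 68.3% above 0.6. For genes marked in 1 HF and no RD library the values were 0.50 and 39.7%. Over all genes outside the classes all 6, none, HF+RD- and RD+HF- they were 0.69 and 60.4%, near those of HF+RD- genes.

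Hepatocyte genes gave the check of the tissue. Of 34 hepatocyte markers, 34 were marked in each HF library, and 31, 30 and 27 in RD 1, RD 2 and RD 3, with 25 marked in all 6. Alb, the gene of serum albumin, was marked in 3 HF libraries and in RD 1. Of the 34 markers 2 (5.88%) were marked in all 3 HF and no RD library, against 6.91% of all coding genes. Pck1, which encodes the enzyme that commits oxaloacetate to gluconeogenesis, had islands of 2400, 3000 and 5000 bp in HF 1, HF 2 and HF 3, at chr2:173153001-173155400, chr2:173153401-173156400 and chr2:173152601-173157600 (mm10). These islands cover or directly follow the 5' end of the gene and ranked at percentiles 48.5, 81.6 and 70.4 of their lists. Foxa1, a pioneer transcription factor of the liver, had islands of 2200, 4600 and 4800 bp over the gene body, at chr12:57543601-57545800 in HF 1 and of like position in the others, with ranks of 63.9, 89.4 and 82.3. Its relative Foxa2 was marked in all HF libraries and in RD 1 and RD 2.

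The 250 bases before the start site in RefSeq are shown for Pck1 and Foxa1, and for Cpt1a, the gate of fatty acid entry into mitochondria, as a promoter marked in all 6 libraries. The sequences run 5' to 3' on the strand of the gene, from GRCm38.p6, the assembly of mm10, with each CpG in capitals. They lie at chr2:173152823-173153072 (plus strand), chr12:57546112-57546361 (minus strand) and chr19:3323051-3323300 (plus strand).
Pck1: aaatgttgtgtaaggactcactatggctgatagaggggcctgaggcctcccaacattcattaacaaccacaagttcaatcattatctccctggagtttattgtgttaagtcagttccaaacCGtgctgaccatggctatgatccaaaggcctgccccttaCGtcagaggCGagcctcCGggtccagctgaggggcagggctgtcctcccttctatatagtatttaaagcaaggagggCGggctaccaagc
Foxa1: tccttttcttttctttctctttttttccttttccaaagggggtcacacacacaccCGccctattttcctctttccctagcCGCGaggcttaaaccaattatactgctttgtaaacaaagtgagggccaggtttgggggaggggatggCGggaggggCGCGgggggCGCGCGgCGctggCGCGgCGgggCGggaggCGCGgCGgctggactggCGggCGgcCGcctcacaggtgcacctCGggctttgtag
Cpt1a: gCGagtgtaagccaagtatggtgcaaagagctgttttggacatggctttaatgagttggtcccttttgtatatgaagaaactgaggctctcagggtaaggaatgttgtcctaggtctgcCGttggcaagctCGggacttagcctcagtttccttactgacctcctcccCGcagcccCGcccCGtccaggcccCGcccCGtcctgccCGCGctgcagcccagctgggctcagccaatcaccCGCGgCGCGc
The Pck1 window holds 5 CpGs, the Foxa1 window 21 and the Cpt1a window 14. The CpG ratios were 0.31, 0.89 and 0.63. Foxa1, with the richest window, had no RD island and Cpt1a had one in each RD library. These 3 windows are examples, and a link between CpG content and presence in RD was not tested. Over the classes, the median ratio was 0.80 for genes marked in all 6 libraries and 0.67 for HF+RD- genes. The Foxa1 window shown lies outside the HF islands of the gene, which end at chr12:57545800 or before. The Cpt1a islands were 4600, 4800 and 5000 bp wide in HF and 3600, 3400 and 3800 bp in RD, and their ranks ran from percentile 96.3 to 99.2 of their lists.

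The 8 HF+RD- genes with the widest mean HF island among those marked in all 3 HF libraries were Sarm1, Bcorl1, Ssbp4, H2-Ke6, Nr4a3, Nek8, Zfp503 and Zcchc3. The Sarm1 island, of 6000, 4200 and 5600 bp, also covered the start of Vtn, the gene of the plasma protein vitronectin. Vtn had islands in all 3 RD libraries, of 1600, 2200 and 2400 bp, that did not come within 1 kb of a Sarm1 TSS. H2-Ke6, an enzyme gene in the major histocompatibility region, shared its 7000 bp island in HF 1 with Rxrb, a retinoid X receptor marked in all 6 libraries. Nek8, a kinase of primary cilia, shared its islands of 4800, 3400 and 5400 bp with Tlcd1, which was marked in RD 2. These 3 genes were among the 41 that fell away when HF islands overlapping an RD island were set aside. Nr4a3, an orphan nuclear receptor that is an immediate early gene, had islands of 4600, 4200 and 4800 bp that belonged to no other coding gene, with ranks of 91.0, 90.1 and 97.9. Zfp503, a developmental zinc-finger regulator, had islands of 5600, 1800 and 6200 bp, and Bcorl1, a transcriptional corepressor on chromosome X, had 4200, 5200 and 6400 bp.

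A set of 20 genes of dietary lipid and glucose response was followed whatever its values. Cpt1a, Plin2, Srebf1 and Fasn were marked in all 6 libraries. Srebf1, the lipogenic transcription factor, had islands of 4400, 4800 and 4800 bp in HF and 1800, 2600 and 2400 bp in RD. The RD 1 island of Srebf1 lay at chr11:60219801-60221600, away from the other 5, which lay between 60206401 and 60211400, so its width belongs to another start of the gene. Plin2, which coats lipid droplets, had 3800, 6800 and 4200 bp in HF and 3000, 2800 and 3200 bp in RD. In the centred widths described below, none of these 4 genes passed the test.

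Pck1 was the only one of the 20 marked in all 3 HF and no RD library, a rule that 6.91% of all coding genes met. Pparg, the adipogenic nuclear receptor that rises in fatty liver, was marked in all 3 HF libraries with islands of 2000, 1600 and 1600 bp and in RD 1 with 1000 bp. G6pc, Igfbp1, Pdk4 and Cyp8b1 were marked in 3 HF and 2 RD libraries, and Scd1 in 2 HF and 1 RD library. Cyp7a1, the rate-limiting enzyme of bile acid synthesis, and Lepr were each marked in 1 library of either diet. Cd36 and Fgf21 were each marked in 1 HF library. Cidea, Cidec, Mogat1 and Plin4, genes of lipid storage, had no island in any of the 6 libraries.

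The gene lists were read against the 11.4% of all coding genes that were HF+RD-. Among the 12629 coding genes marked in any of the 6 libraries, 19.7% were HF+RD-, and on that base serine, glycine and threonine metabolism (19.4%), bile acid synthesis and transport (17.9%), inflammation and NF-kB (19.0%) and the Zfp family (18.1%) lay just below it and lipid uptake, droplets and lipolysis (21.9%) just above. In glucose and pyruvate metabolism 14 of 61 genes (22.95%) were HF+RD-, 10 of them marked in all 3 HF libraries. Besides Pck1 these included Grhpr, the glyoxylate reductase, with islands of 5200, 2600 and 3400 bp, Hk2, the inducible hexokinase, with 4000, 1600 and 3000 bp, and Pklr, the liver pyruvate kinase, with 2000, 1000 and 1200 bp. The HF libraries marked 56, 47 and 55 of the 61 genes and the RD libraries 28, 38 and 27. Among the members marked in any library 24.1% were HF+RD-, against 19.7% of marked coding genes. In serine, glycine and threonine metabolism 6 of 36 genes (16.7%) were HF+RD-. Among them were Shmt2, the mitochondrial serine hydroxymethyltransferase, with islands of 2200, 2800 and 3000 bp, Maob, and Chdh, the dehydrogenase that starts the path from choline to betaine. The Chdh island was also that of Il17rb in each HF library. The ranges of the glucose and the serine lists did not overlap between the diets, at 28 to 31 of 36 genes in HF and 15 to 21 in RD for the second. The same held over all coding genes, with 47.6% to 54.6% marked in HF and 27.8% to 34.7% in RD, so it is not particular to these lists.

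In lipid uptake, droplets and lipolysis 7 of 41 genes (17.1%) were HF+RD-. Abhd5, the coactivator of adipose triglyceride lipase, had islands of 2200, 1200 and 2800 bp, Bscl2 (seipin) had 2000, 1000 and 2200 bp and the fatty acid transporter Slc27a4 had 1000, 1000 and 1600 bp. The Bscl2 island was also that of Gng3 in HF 1 and HF 3. Fatty acid oxidation and ketogenesis stood near the share of all coding genes, with 5 of 46 genes (10.9%), among them Acads and the peroxisomal oxidases Acox2 and Acox3, while 28 were marked in all 6 libraries. Of its members marked in any library 11.4% were HF+RD-, below the 19.7% of marked coding genes. In fatty acid, triglyceride and sterol synthesis 2 of 48 genes (4.17%) were HF+RD-, Acacb and Pmvk, and 26 were marked in all 6. Bile acid synthesis and transport held 5 of 32 genes (15.6%), including Cyp7b1, of the alternative pathway, with islands of 2200, 1400 and 2200 bp, and Atp8b1, a flippase of the bile canaliculus.

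**Figure D4:**
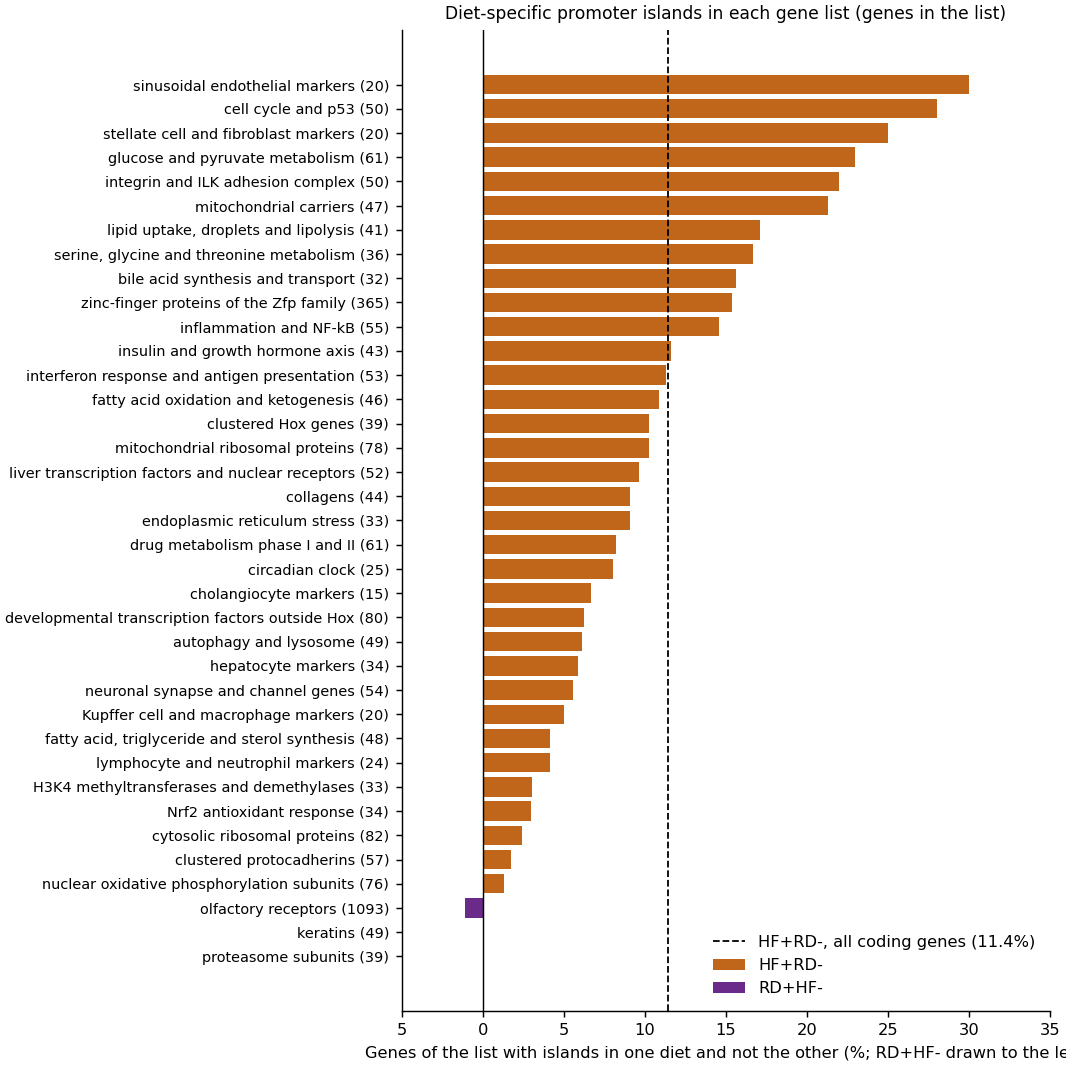
Share of the genes of each list that were HF+RD- (orange, to the right) or RD+HF- (purple, to the left), in percent, with the number of coding genes of the list in brackets; the dashed line is the 11.4% of all coding genes that were HF+RD-. The lists run from 30.0% for sinusoidal endothelial markers to 0 for proteasome subunits and keratins, and olfactory receptors are the one list with an RD+HF- bar.

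The highest shares were in sinusoidal endothelial markers, with 6 of 20 genes (30.0%), cell cycle and p53, with 14 of 50 (28.0%), and stellate cell and fibroblast markers, with 5 of 20 (25%). Among members marked in any library the shares were 31.6%, 29.8% and 38.5%, against 19.7% of marked coding genes. Kdr, the main VEGF receptor, had islands of 1600, 1400 and 3200 bp in HF, and Cdh5, vascular endothelial cadherin, had 1600, 1000 and 2200 bp. Hgf, the hepatocyte growth factor of stellate cells, had 6000, 1800 and 1800 bp, and Pdgfra, a receptor of mesenchymal cells, had 2400, 1200 and 2600 bp. Among cell cycle genes, Ccne2 (cyclin E2) and the replication helicase subunits Mcm3, Mcm5 and Mcm6 were marked in all 3 HF libraries and in no RD library. Mki67 was marked in HF 1 and HF 3, with islands of 1400 and 1000 bp.

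HF 1 carried more marks of other liver cells than the other libraries. The numbers of 20 endothelial markers marked were 19, 10 and 14 in HF and 4, 5 and 4 in RD, and those of 20 stellate cell markers 11, 4 and 6 in HF and 1, 0 and 0 in RD. Of 20 Kupffer cell and macrophage markers 12 were marked in HF 1, 1 in HF 2, 2 in HF 3 and 1, 1 and 0 in RD, and 1 (Clec4f) was HF+RD-. Cholangiocyte markers numbered 6, 4 and 5 of 15 in HF and 4, 3 and 3 in RD, and lymphocyte and neutrophil markers 3, 0 and 1 of 24 in HF and 0, 1 and 1 in RD, with 1 HF+RD- gene in each list, Sox9 and Lck. In whole liver, more cells of a type and more H3K4me3 per cell cannot be told apart. The part of these cells in the other lists was not tested. Without HF 1, when both remaining HF libraries had to mark a gene, 7.07% of all coding genes, 2 endothelial markers, 4 cell cycle genes, 3 stellate cell markers, 10 of the 61 glucose and pyruvate genes and 3 of the 41 genes of lipid uptake were HF+RD-. Without HF 3 the numbers were 7.61% of all coding genes, 2, 6, 4, 10 and 3.

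In the integrin and ILK adhesion complex, the kinase assembly that joins integrins to actin, 11 of 50 genes (22%) were HF+RD-, among them Itga9, with islands of 3800, 1200 and 3400 bp, Itga7, Nck2 and Lims1 (PINCH). HF libraries marked 39, 32 and 37 of the 50 and RD libraries 24, 22 and 19. Without HF 1 the number was 5 (10%) and without HF 3 it was 6 (12%), against 7.07% and 7.61% of all coding genes. Mitochondrial carriers had 10 of 47 (21.3%), including Slc25a23, a calcium-dependent ATP carrier that shared its island with Crb3 in each HF library. Among members marked in any library, 26.8% of the adhesion list and 25% of the carriers were HF+RD-, against 19.7% of marked coding genes. Zinc-finger genes of the Zfp family had 56 of 365 (15.3%), with 83.0%, 75.3% and 78.6% of the family marked in HF and 49.9%, 54.5% and 41.4% in RD. Inflammation and NF-kB had 8 of 55 (14.5%). Orm1, an acute-phase plasma protein, had islands of 3000, 2200 and 4000 bp, Cxcl1, a neutrophil chemokine, 2600, 2400 and 3400 bp, and Relb 1800, 1600 and 2600 bp. In the Zfp family 33 genes (9.04%) met the rule without HF 1 and 38 (10.4%) without HF 3, and in mitochondrial carriers 6 (12.8%) and 7 (14.9%). In inflammation and NF-kB the numbers were 3 (5.45%) and 4 (7.27%), below the 7.07% and 7.61% of all coding genes.

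Shares near that of all coding genes were found for the insulin and growth hormone axis (5 of 43), interferon response and antigen presentation (6 of 53, and 1 without HF 1 or without HF 3), clustered Hox genes (4 of 39), mitochondrial ribosomal proteins (8 of 78) and liver transcription factors and nuclear receptors (5 of 52). Lower shares were found for collagens (4 of 44), endoplasmic reticulum stress (3 of 33), drug metabolism phase I and II (5 of 61), the circadian clock (2 of 25), developmental transcription factors outside Hox (5 of 80), autophagy and lysosome (3 of 49) and neuronal synapse and channel genes (3 of 54). Among the members marked in any of the 6 libraries, the HF+RD- share was 28.6% for collagens, 35.7% for developmental factors, 27.3% for neuronal genes and 36.4% for Hox genes, all above the 19.7% of marked coding genes. Below the 19.7% were the insulin and growth hormone axis (12.5%), interferon response and antigen presentation (12.8%), mitochondrial ribosomal proteins (10.3%) and liver transcription factors and nuclear receptors (10.2%). Among all these lists, Igf1r, Npas2, the stress pseudokinase Trib3, and the neighbours Col4a1 and Col4a2, which share 1 island, were marked in all 3 HF and no RD library.

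Of 76 nuclear subunits of oxidative phosphorylation 53 were marked in all 6 libraries and 1, Atp5d, was HF+RD-. The Atp5d island was also that of Cbarp in each HF library. Of 39 proteasome subunits 31 were marked in all 6 and none was HF+RD-, and of 82 cytosolic ribosomal proteins 65 were marked in all 6 and 2, Rpl36a and Rplp0, were HF+RD-. The Nrf2 antioxidant response had 1 of 34 (Cbr3) and H3K4 methyltransferases and demethylases 1 of 33 (Smyd2), with 18 and 17 marked in all 6. Of other lists, 46 of 49 keratins, 66 of the 80 developmental factors and 43 of the 54 neuronal genes were marked in no library, keratins had no HF+RD- gene, and clustered protocadherins had 1 of 57.

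The 27 RD+HF- genes had another make-up. All but Ank1 are named here after their values were seen. They comprise 12 olfactory receptors (Olfr57, Olfr670, Olfr790, Olfr794, Olfr799, Olfr1085, Olfr1093, Olfr1110, Olfr1113, Olfr1217, Olfr1306 and Olfr1355) and 5 vomeronasal receptors (Vmn1r26, Vmn1r46, Vmn1r67, Vmn1r68 and Vmn1r84). Olfactory and vomeronasal receptors serve the detection of odours and pheromones in sensory neurons and are silent in liver. The others are the neuronal adhesion genes Nrcam, Cdh9 and Cntn6, Chia1 (an acidic chitinase), Catsperg2 (of a sperm calcium channel), AY761185, the predicted genes Gm10226, Gm9733 and Gm5751, and Ank1. All 27 were marked in RD 2, with 15 in RD 1 and 13 in RD 3. Without RD 2, 1 gene was left, Ank1, while 13 genes met the rule without RD 1 and 15 without RD 3.

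Olfactory receptors were marked at 17, 24 and 2 of 1093 genes in HF 1, HF 2 and HF 3 and at 20, 145 and 22 in RD 1, RD 2 and RD 3. RD 2 stands far above the other 5 libraries, and the other RD libraries lie within the range of HF. One olfactory receptor, Olfr1388, was marked in all 3 HF and no RD library. Of the 27 start windows 2, or 7.41%, had a CpG ratio above 0.6, against 44.7% of all coding genes, and the median ratio was 0.13. TATAAA was found in 33.3% of them, against 12.7% of all. The islands at these genes had a median GC content of 38.2%, 36.8% and 37.2% in RD 1, RD 2 and RD 3, against 54.7%, 52.1% and 53.9% at the genes marked in all 6 libraries. Over its whole list, the median GC content of an island was 43.2% in RD 1, 38.4% in RD 2 and 43.2% in RD 3, and 46.5%, 45.8% and 52.1% in HF. Among the classes of genes counted, processed pseudogenes were the one with no excess in HF. Of 9849 such genes 37 (0.376%) were HF+RD- and 45 (0.457%) RD+HF-, against 11.4% and 0.124% of coding genes.

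Ank1, which encodes the erythrocyte ankyrin of the membrane skeleton, was marked in all 3 RD libraries. Its islands were 400, 600 and 600 bp wide, all starting at chr8:23095401 (mm10), and ranked at percentiles 74.7, 42.3 and 49.2. The 400 bp they share overlap no annotated exon and lie within the gene, 301 bp before an internal TSS, and the nearest edge of an HF island lay 110601 bp from the middle of this part in HF 1 and farther in HF 2 and HF 3. An island overlapped the shared 400 bp in 2 SD, 3 CR and 3 YD libraries and in no HF library. The middle 250 bases of the shared part, chr8:23095476-23095725 on the plus strand, are shown because they are built of repeats, with the letters ATGGCGA in capitals.
Ank1: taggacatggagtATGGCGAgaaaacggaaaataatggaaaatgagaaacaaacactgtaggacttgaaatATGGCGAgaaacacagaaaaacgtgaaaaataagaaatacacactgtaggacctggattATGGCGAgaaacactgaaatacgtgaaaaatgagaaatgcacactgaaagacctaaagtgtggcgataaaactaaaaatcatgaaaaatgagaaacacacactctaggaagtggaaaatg
ATGGCGA occurs 3 times in this window, while 2.11% of the start windows of coding genes hold it on either strand. When the sequence is set against itself, 60.2% of its letters are equal at a shift of 117 bases and 59.7% at a shift of 59, against a median of 31.7% over all shifts tried. Tandem units of this kind are known from the mouse major satellite, the repeat of pericentromeric heterochromatin. The soft-masked share of the 400 bp, the letters that the assembly marks as repeats or low complexity, was 73.8%. The reads were kept from a mapping quality of 1 upwards, and the part of reads from other copies of the repeat in these islands was not tested.

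The other 3 diets give a view of the same genes that the choice of genes did not use. At the 2482 HF+RD- genes, 36.1% ± 15.2 had an island in SD, 48.95% ± 21.0 in CR and 5.36% ± 2.67 in YD (mean and SD of 3 libraries each). At least 2 of 3 libraries marked 828 of them in SD, 1316 in CR and 49 in YD, and 395 were marked in none of the 9 libraries. For the genes marked in all 6 HF and RD libraries the shares were 96.2% ± 4.50 in SD, 97.5% ± 3.86 in CR and 75.2% ± 13.1 in YD. Over all coding genes, the libraries marked 32.7% to 43.1% in SD, 35.5% to 48.2% in CR and 17.5% to 26.5% in YD. The genes marked in HF and not in RD thus lay mostly outside the marked genes of the other corn diet, and often within those of SD and CR, where the libraries differed from each other by more than 2-fold in the share. Nr4a3 was marked in 2 SD, 3 CR and 1 YD library, Pck1 in 3, 2 and 1, and Foxa1 in 2, 2 and 1. Zfp503 was marked in 0, 2 and 0, and Vipr1 and Slc25a24, which were marked in all 3 HF libraries, in none of the 9. The RD+HF- genes were marked at 13.6% ± 7.71 in SD, 12.3% ± 11.9 in CR and 6.17% ± 2.14 in YD.

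**Figure D5:**
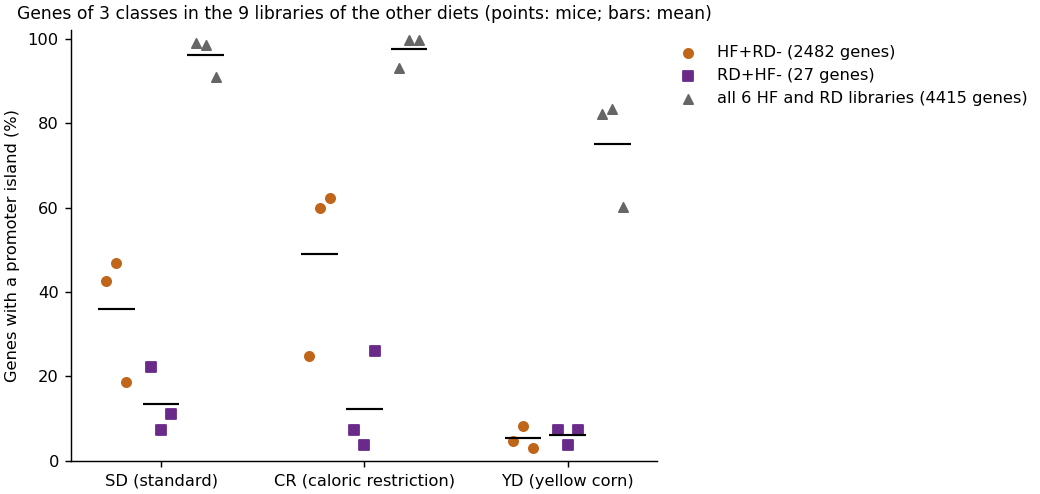
Share of genes with a promoter island in percent (vertical axis) in the 3 libraries each of SD, CR and YD, for HF+RD- genes (orange circles), RD+HF- genes (purple squares) and genes marked in all 6 HF and RD libraries (grey triangles); points are mice and black bars the mean of the diet. HF+RD- genes stand at 18.7% to 47.0% in SD, 24.7% to 62.3% in CR and 3.10% to 8.30% in YD.

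At the 4415 promoters marked in all 6 libraries, the question was whether the island differed in width or in the rank of its score. The median width was 3400, 2400 and 2800 bp in HF and 1600, 2200 and 1600 bp in RD. The means, 2867 bp ± 503 and 1800 bp ± 346 (SD, n = 3 each), differed by 1067 bp without overlap (exact permutation p = 0.1). Every HF island was wider than every RD island at 1354 of the promoters (30.7%), and the reverse held at 2 (0.0453%). The difference was thus common to most promoters, with a median of 0.64 on the log2 scale.

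Widths were therefore centred on the median of each library before single promoters were compared, with limma and Benjamini-Hochberg adjustment over all 4415. After centring, no promoter passed an adjusted p of 0.05 in either direction, and at an unadjusted p under 0.05 there were 183 wider in HF (4.14%) and 163 wider in RD (3.69%). The rank of the score among the shared promoters of a list also gave no promoter past the threshold in limma, with 201 higher in HF (4.55%) and 165 higher in RD (3.74%) at an unadjusted p under 0.05. The threshold of 0.05 covers both directions together, while these shares are given for each direction apart. Centred widths of all HF libraries lay above those of all RD libraries at 248 promoters (5.62%) and below at 376 (8.52%), and ranks above at 323 (7.32%) and below at 346 (7.84%). For a single promoter, 1 of the 20 arrangements of the libraries puts all HF above all RD. The 6 islands of a promoter shared at least 1 base at 4132 of the 4415 (93.6%). At the others, Srebf1, Vegfa, Lcmt1, Arhgap17, Gm17332, Zfp729a and Litaf among the genes described here, the islands compared did not all overlap.

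None of the promoters named next passed the threshold, and they are those with the smallest p in each direction. Cux1, a homeobox transcription factor, had islands of 5200, 3400 and 4200 bp in HF and 800, 1200 and 600 bp in RD. The HF islands of Cux1 were the wider in every pair of libraries, with a centred log2 difference of 1.66 ± 0.30 (SE) and a limma adjusted p of 0.275. Lcmt1 and Arhgap17 share a start region and an island of 4000, 2400 and 3800 bp in HF, and had 400 to 800 bp in RD (for Lcmt1 the RD 2 island overlapped none of the other 5; difference 1.85 ± 0.37, limma adjusted p = 0.462). P4hb, a protein disulfide isomerase of the endoplasmic reticulum, had 5200, 3800 and 4800 bp in HF and 1400, 1000 and 800 bp in RD. In the other direction, the predicted gene Gm17332 had 1600, 2200 and 1800 bp in HF and 5400, 7200 and 2600 bp in RD, a difference of -2.01 ± 0.36 (limma adjusted p = 0.275). Aida and Brox, which share a promoter, had 4400, 2400 and 2600 bp in HF and 3400, 4200 and 3800 bp in RD, so that only the centred widths kept the diets apart. The uncharacterised 4931408C20Rik had 2400 to 2600 bp in HF and 2400 to 6600 bp in RD.

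In the ranks, the genes of smallest p higher in HF were Rps2, Jun, Phf12 and Vegfa. Jun, the AP-1 subunit and immediate early gene, had a mean rank of 94.3 among the shared promoters in HF and 55.6 in RD, a difference of 38.7 ± 8.48 points (SE; limma adjusted p = 0.528). Its islands were 5400, 4600 and 5200 bp wide in HF and 2200, 2800 and 1600 bp in RD. Vegfa, the growth factor whose receptor gene Kdr was HF+RD-, had mean ranks of 96.1 and 56.7, with islands of 5400, 5600 and 4600 bp in HF and 1600, 3000 and 1200 bp in RD (difference 39.3 ± 8.76). Rps2, a ribosomal protein gene whose island also reaches Ndufb10 and Rnf151, differed by 29.5 ± 6.04 points and Phf12 by 23.4 ± 5.18. Higher in RD were Gm17332 (-78.3 ± 14.7), Zfp729a, a zinc-finger gene (-69.1 ± 15.4), Oasl1, an interferon-induced gene (-66.9 ± 13.7) and Litaf, a lysosomal protein gene (-30.7 ± 6.51), each with a limma adjusted p of 0.528. The difference for Litaf was 3.56 when the widest island was taken in place of the highest-scoring one, so its direction depends on that choice. Junb, a partner of Jun, is named after its values were seen: it had 6800, 4400 and 7600 bp in HF and 1600, 2000 and 1600 bp in RD.

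Where all 15 libraries entered 1 fit, which gives a spread from 5 diets, Jun (limma adjusted p = 0.00357) and, in the other direction, Oasl1 (adjusted p = 0.00357) and Id1 (rank difference -63.7 ± 10.2, adjusted p = 0.0205) passed the threshold for rank, and Gm17332 (adjusted p = 0.0417) for width.

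Among the lists, the ranks of all HF libraries lay above those of all RD libraries at 7 of the 18 shared promoters of the integrin and ILK complex and below at none. For liver transcription factors and nuclear receptors the numbers were 9 of 33 above and 1 below, and for glucose and pyruvate metabolism 6 of 23 above and 1 below. For zinc-finger genes of the Zfp family 6 of 110 lay above and 21 below, and for drug metabolism none of 14 above and 5 below. The medians of the rank difference were 9.18, 10.9, 4.55, -13.7 and -15.0 points in these 5 lists, against -0.21 over all shared promoters, of which 7.32% lay above and 7.84% below. These 5 lists were picked after their values were seen. The 25 hepatocyte markers among the shared promoters lay near 0, with a median of -0.88 points in rank and -0.05 in centred log2 width. Apob, the protein of very low density lipoprotein, had 5200, 4400 and 4400 bp in HF and 1800, 4000 and 3800 bp in RD. Hnf4a, the master regulator of hepatocytes, had 6000, 4600 and 9800 bp in HF and 3000, 4600 and 2800 bp in RD. Prox1 had 5400, 9200 and 5800 bp in HF and 2800, 5200 and 4800 bp in RD. None of these 3 promoters differed beyond the spread between mice in the centred fit, with limma adjusted p-values of 0.979, 0.848 and 0.998 for width.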

How the data were processed

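PAT-ChIP-seq of H3K4me3 covered 15 mouse livers, 3 for each of 5 diets, and the 3 HF and 3 RD libraries were compared. The authors aligned single reads to mm10 with bwa, kept non-duplicate reads of MAPQ 1 or more on chromosomes 1 to 19 and X, and called islands in each library with SICER2 (windows of 200 bp, gap of 400 bp, FDR under 0.05). BWA, SAMtools and SICER are named in the submitters' processing notes. The files deposited by the authors hold the position of each island and a score, which is not scaled between libraries and was ranked within a list. Replicates were not pooled.

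The members and gene lists were chosen with earlier results of these data known. TSSs came from GENCODE M21 (139486 transcripts of 53843 genes, 21755 of them coding). A gene had an island when one lay within 1 kb of any of its TSSs, and the island of highest score was used. Named genes were the 8 of widest mean island among genes marked by 3 of 3 libraries of a diet and by no library of the other, up to 4 such members of each of 37 lists, the 4 of smallest p in each direction at shared promoters, 20 diet genes and 34 hepatocyte markers. One of the diet genes is not reported here. A symbol with more than 1 coding gene ID counts once per ID. Group means were compared by two-sided exact permutation tests over 20 arrangements. Widths (log2) and ranks at shared promoters were fitted with limma 3.58.1 (eBayes with trend) in R 4.3.3. Python 3.11.15 was used for the rest. Counting and fits were tested on simulated data. Reads were recovered from the score steps of single-window islands with an effective genome fraction of 0.74. The depth behind single islands was not used, so errors are those between mice. The mice came from several litters, and which mouse came from which litter is not given in the sources used here.

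Alternatives were other sets of islands, distances, genes and libraries, a replicate block, other fits and the removal of each library. Not analysed here were read counts, an input control, body weight, food and expression.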

Additional observations from a re-analysis of the deposited data

How the results depend on the processing

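The difference in marked coding genes ran from 18.3 to 21.8 points and that in the promoter share from 14.9 to 31.2 points when 1 library was left out, and both stayed higher in HF under every alternative run. The count of HF+RD- genes ran from 1538 (without HF 1) to 3397 (without RD 2). It was 1504 with all 3 libraries required and 3777 within the ChIP libraries. With equal numbers of top islands it was 2616, of which 1947 were among the 2482, and with islands at or above the median score 1991, of which 811 were. The count of RD+HF- genes ran from 1 (without RD 2) to 40, with 13 without RD 1 and 15 without RD 3. It was 63 at 3 kb, 110 over every biotype, 69 within the PATChIP libraries, 1 with all 3 libraries required and 307 with at least 1.

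Promoters wider in RD numbered 1 with islands in at least 2 of 3 libraries of each diet (Zfp72, adjusted p = 0.0233), 1 with all 15 libraries in the fit, and 0 to 1 with a library left out (Zfp72 without RD 1, Zfp729a without HF 1). In ranks, 1 promoter was higher in HF and 2 in RD with all 15 libraries. Without centring, widths gave 1293 promoters wider in HF and 1 in RD at an unadjusted p under 0.05, and 0 adjusted. The rank difference of Litaf was 3.56 when the widest island was taken instead of the highest-scoring. The cause of these changes was not tested.

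Replicate numbers were shared by the labels of both diets. Deviations of same-numbered libraries correlated at r = 0.00137, 0.0420 and 0.0193 for presence, so the numbers were not taken as pairs. With the replicate block both differences, 19.995 points and 24.3 points, had an exact permutation p of 0.25, the smallest that 8 arrangements give, and limma with the block called 0 promoters.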

Other observations

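Genes outside the coding set were marked unevenly as well. Of 2958 antisense genes 186 (6.29%) were HF+RD- and 2 (0.0676%) RD+HF-. Of 5305 lincRNA genes the numbers were 133 (2.51%) and 6 (0.113%), and of 190 bidirectional promoter lncRNA genes 25 (13.2%) and 0. The shares of coding genes were 11.4% and 0.124%, so HF+RD- shares of antisense and lincRNA genes lay below that of coding genes. Since antisense genes overlap coding genes, an island cannot be given to one of the pair.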
